A study of Mus musculus with 8 samples.

Results

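Sphingosine 1-phosphate (S1P) signalling was followed through 8 genes: the kinases Sphk1 and Sphk2 that make S1P, the exporter Spns2, the lyase Sgpl1 and the phosphatase Sgpp1 that remove it, and the receptors S1pr1, S1pr2 and S1pr3. All 8 were found by gene symbol among the 23930 amplicons of a mouse transcriptome panel, each amplicon standing for 1 gene, and all 8 passed the filter on low values. RNA bound to tagged ribosomes of kidney endothelium was measured in 8 mice. The groups combined the genotype, labelled SOCS3iKEO or WT, with an intraperitoneal injection of lipopolysaccharide (LPS, bacterial endotoxin; 250 µg in 250 µl) or of 250 µl saline, with kidneys taken at 14 hours. The groups held 2 SOCS3iKEO mice with LPS, 3 WT mice with LPS, 1 SOCS3iKEO mouse with saline and 2 WT mice with saline.

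SOCS3iKEO is the label's name for the mutant genotype; the labels do not spell it out or give its alleles, and Socs3, the gene in the name, encodes an inhibitor of JAK-STAT signalling. Per the labels' protocols, the mice of both genotypes carried a floxed EGFP-tagged ribosomal protein (EGFP/Rpl10a) switched on by the tamoxifen-inducible cdh5-CreERT2, a driver of endothelial cells, and this text is given for WT and SOCS3iKEO samples alike. The labels give no age, no sex and no tamoxifen schedule.

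S1P is a lipid made inside cells by phosphorylation of sphingosine, a breakdown product of ceramide. It leaves endothelial cells through Spns2, circulates bound to carriers such as apolipoprotein M, and acts on G protein-coupled receptors of the cell surface. In endothelium S1PR1 couples to Gi and Rac and tightens junctions, whereas S1PR2 couples mainly to G12 and G13 proteins and loosens them.

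Libraries held 7093794 to 14877519 reads on the panel. Values below are reads per 1000000 panel reads (RPM) scaled between libraries by TMM, a scaling that sets aside the most extreme genes, unless called deposited RPM. The factors were 0.671 and 0.709 in the SOCS3iKEO LPS libraries, 0.994 to 1.07 in WT LPS, 1.25 in SOCS3iKEO saline and 1.25 to 1.26 in WT saline, so this scaling bears most on comparisons with SOCS3iKEO LPS. On deposited RPM the median log2 fold change of all 12820 tested genes was -0.45 for SOCS3iKEO against WT after LPS, -0.73 for LPS in SOCS3iKEO, -0.26 for LPS in WT and -0.44 for the difference of the LPS effects, against -0.04, -0.08, -0.02 and -0.01 after TMM. Deposited Socs3 was 2.37 and 1.77 RPM in SOCS3iKEO LPS, 9.88, 1.26 and 2.36 in WT LPS, 0.282 in SOCS3iKEO saline and 0.631 and 0.202 in WT saline. Where its amplicon lies relative to any deleted part is unknown here, and these values cannot serve as a check of genotype. Y-linked genes had 3320 to 3987 reads in 3 WT libraries (WT LPS replicates 2 and 3, WT saline replicate 2) and 1 to 3 reads in the other 5, among them every SOCS3iKEO library. The numbers in the sample titles fall into 2 runs, 6992 to 6998 for the SOCS3iKEO LPS and WT saline mice and 7032 to 7038 for the WT LPS and SOCS3iKEO saline mice, and the labels do not say what the runs stand for. Each comparison below sets libraries of one run against the other, and the interaction sets one whole run against the other, so a difference between the runs and the effects of genotype and LPS cannot be told apart.

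Each comparison comes from 1 limma fit over the 8 libraries, with Benjamini-Hochberg adjusted p below 0.05 taken as called. After LPS, 6 of the 8 genes differed between SOCS3iKEO and WT, beside 50.7% of all genes tested. S1pr1, S1pr3, Sphk1 and Sgpl1 were higher in SOCS3iKEO (24% of all genes were) and Spns2 and S1pr2 lower (26.7% of all genes), whereas Sphk2 and Sgpp1 did not pass. LPS against saline within SOCS3iKEO called 5 of 8, with S1pr1, S1pr3, Sphk1 and Sgpl1 higher and Spns2 lower, beside 44.1% of all genes (20.2% higher and 23.9% lower). Within WT it called Sphk1 alone, which was higher, beside 15.6% of all genes (6.85% higher and 8.79% lower). On scaled RPM, groups did not overlap for 8 of 8 genes between SOCS3iKEO and WT after LPS, beside 67.2% of all genes. Between LPS and saline they did not overlap for 8 of 8 in SOCS3iKEO and 4 of 8 in WT, beside 85.7% and 56.4% of all genes. On deposited RPM, however, Sphk2 and Sgpp1 did overlap between SOCS3iKEO and WT after LPS.

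The median log2 fold change of the 8 genes was 1.24 for SOCS3iKEO against WT after LPS, against -0.04 for all genes tested; for LPS within SOCS3iKEO it was 1.11 against -0.08, and for LPS within WT 0.13 against -0.02. The direction split depended on scaling at its edge: SOCS3iKEO against WT after LPS gave 4 higher and 2 lower after TMM and on deposited RPM, and 4 higher and 1 lower with RLE size factors. LPS in SOCS3iKEO gave 4 higher and 1 lower after TMM, and 3 higher and 2 lower on deposited RPM. These comparisons share libraries: the SOCS3iKEO LPS pair enters several of the contrasts, so their results are not independent of each other.

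Markers of other cell types differed between the groups, and their sums depended on scaling. Scaled RPM of 16 endothelial markers summed to 7352 to 9380 in SOCS3iKEO LPS and 7250 to 8987 in WT LPS, so these groups overlapped. The sums were 9518 in SOCS3iKEO saline and 9617 to 10293 in WT saline. On deposited RPM the LPS groups did not overlap, at 4935 to 6650 in SOCS3iKEO LPS and 7210 to 9059 in WT LPS. Single markers differed within these sums. Limma after TMM called 4 higher and 4 lower in SOCS3iKEO against WT after LPS, beside 24% and 26.7% of all genes. Among them Cdh5 was higher (2.31) and Ramp2 lower (-2.54). LPS against saline called 4 higher and 6 lower in SOCS3iKEO, and 1 higher and 5 lower in WT. Proximal tubule markers summed to 3422 to 4514 scaled RPM in SOCS3iKEO LPS, 1104 to 1654 in WT LPS, 2042 in SOCS3iKEO saline and 2065 to 2096 in WT saline, and limma after TMM called 11 of 12 higher in SOCS3iKEO than in WT after LPS. On deposited RPM SOCS3iKEO LPS, at 2426 to 3030, was above WT LPS, at 1098 to 1667, but spanned the 2544 of SOCS3iKEO saline. Markers of loop, distal tubule and collecting duct summed to 540 to 571 scaled RPM in SOCS3iKEO LPS and 93.2 to 120.2 in WT LPS. They summed to 223 in SOCS3iKEO saline and 205 to 277 in WT saline. Of these 8 markers, 7 were called higher in SOCS3iKEO than in WT after LPS. LPS against saline called 5 of them lower in WT and 2 higher in SOCS3iKEO. Lymphatic endothelial markers summed to 244 to 308 scaled RPM in SOCS3iKEO LPS and 185 to 213 in WT LPS. They summed to 169.9 in SOCS3iKEO saline and 174 to 185 in WT saline. Of 4 tested, 2 were called higher in SOCS3iKEO than in WT after LPS. On deposited RPM, however, SOCS3iKEO LPS, at 164 to 218, overlapped WT LPS, at 198 to 215. Arterial endothelial markers summed to 338 to 430.3 in SOCS3iKEO LPS, 181 to 261 in WT LPS, 731 in SOCS3iKEO saline and 593 to 768 in WT saline, lower after LPS in both genotypes on either scale. Podocyte markers summed to 105 to 167 in SOCS3iKEO LPS, 149 to 182 in WT LPS, 152 in SOCS3iKEO saline and 228 to 248 in WT saline, and on deposited RPM to 70.3 to 118 in SOCS3iKEO LPS and 148 to 195 in WT LPS. Neutrophil markers summed to 21.6 to 43.6 in SOCS3iKEO LPS, 4.30 to 9.11 in WT LPS, 0.679 in SOCS3iKEO saline and 0.700 to 0.778 in WT saline, with Cxcr2 at 0 in all 8 libraries and Mpo and Elane in 7. Mural markers summed to 21.6 to 27.7 in SOCS3iKEO LPS, 7.93 to 10.4 in WT LPS, 26.6 in SOCS3iKEO saline and 11.7 to 14.4 in WT saline, and fibroblast markers to 14.1 to 26.5 in SOCS3iKEO LPS, 21.0 to 30.5 in WT LPS, 40.7 in SOCS3iKEO saline and 17.3 to 23.1 in WT saline. Monocyte and macrophage markers summed to 10.6 to 19.3 in SOCS3iKEO LPS, 5.07 to 9.26 in WT LPS, 8.48 in SOCS3iKEO saline and 5.39 to 17.4 in WT saline, and erythroid and platelet markers to 29.0 to 47.1 in SOCS3iKEO LPS, 15.6 to 31.7 in WT LPS, 3.85 in SOCS3iKEO saline and 4.30 to 5.83 in WT saline. Lymphocyte markers lay between 0.451 and 1.41 in all libraries. Their part in the results for the 8 genes was not tested. In such RNA, fewer cells of a type and less RNA per cell cannot be told apart.

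**Figure D1:**
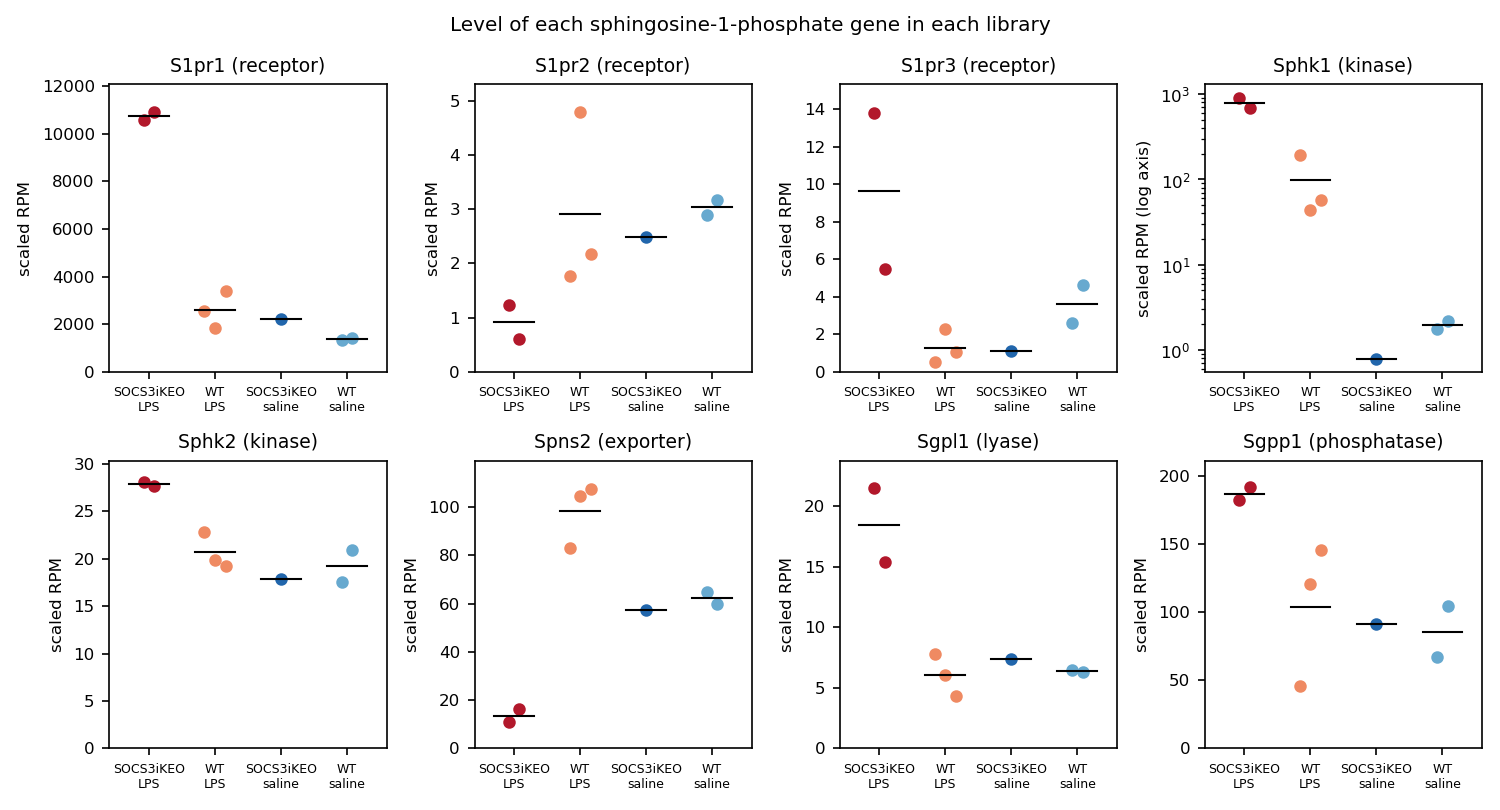
Scaled RPM of each of the 8 genes in every library, 1 panel per gene, with the SOCS3iKEO LPS (red), WT LPS (orange), SOCS3iKEO saline (dark blue) and WT saline (light blue) libraries as points and the group mean as a black bar. The Sphk1 axis is logarithmic and the others start at 0; S1pr1 reached 10576 and 10905 in SOCS3iKEO LPS, and Spns2 was lowest in that group, at 10.8 and 16.1.

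Sphk1, the kinase that makes S1P in the cytoplasm and is inducible by inflammatory signals, had 913 and 684 scaled RPM in SOCS3iKEO LPS, 194, 44.4 and 57.7 in WT LPS, 0.792 in SOCS3iKEO saline and 1.78 and 2.21 in WT saline. The groups did not overlap at any step of the order SOCS3iKEO LPS, WT LPS, WT saline, SOCS3iKEO saline. The saline values rest on few reads, 7 in SOCS3iKEO and 32 and 41 in WT; the deposited 0.987 RPM of the single SOCS3iKEO saline library has an exact (Clopper-Pearson) 95% interval of 0.397 to 2.03 RPM, which covers counting error only. After LPS Sphk1 was higher in SOCS3iKEO than in WT by 3.30 on the log2 scale (SE 0.52, limma adjusted p = 0.00104). LPS against saline raised it by 8.79 in SOCS3iKEO (SE 0.70, limma adjusted p = 0.000117; 9.96 with edgeR on recovered reads) and by 4.75 in WT (SE 0.52, limma adjusted p = 0.000844). Among the WT LPS libraries replicate 1, which has 3 Y-linked reads, stood highest. Without it the WT effect was 4.12 and the SOCS3iKEO against WT difference after LPS 3.95. Both SOCS3iKEO LPS libraries also hold few Y-linked reads, so after LPS these reads and genotype partly coincide. In a fit with a term for Y-linked reads, that term was -1.01 for Sphk1 (limma adjusted p = 0.719), lower in libraries with such reads.

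A start region of Sphk1 is shown because it is the member with the largest LPS response. Sphk1 lies on chromosome 11, chr11:116530925-116536674, plus strand (mm10, GENCODE M21), and RefSeq (GRCm38.p6) lists 5 start sites for it. The 250 bases before the start site at 116531837, chr11:116531587-116531836 on the plus strand, hold an AP-1 motif (TGANTCA) and a STAT motif (TTCNNNGAA) next to each other, given in capitals in that order.
Sphk1: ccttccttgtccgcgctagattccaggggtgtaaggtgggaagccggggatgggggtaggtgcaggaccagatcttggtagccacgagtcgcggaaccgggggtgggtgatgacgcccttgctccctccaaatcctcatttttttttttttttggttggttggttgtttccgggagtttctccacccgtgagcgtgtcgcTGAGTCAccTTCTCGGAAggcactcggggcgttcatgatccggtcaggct

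The matches begin 50 and 41 bases before the start. Searched on both strands in windows of 250 bases before to 50 after each start, TGANTCA was in 7.81% and TTCNNNGAA in 8.3% of 32851 RefSeq promoters, and both together in 0.718%. Among the 12 promoters found for 7 of the 8 genes, both motifs were in 2 overlapping Sphk1 windows and in no other. Of these 12 windows 5 are those of Sphk1, some of them overlapping, so matches are counted by gene. A stricter NF-kB motif, present in 1.63% of all promoters, was found for none of the 7 genes, a looser NF-kB motif for 6, CCACCC (KLF) for 3 and TTCCGG (ETS) for 5, where 50.8%, 31.5% and 14.9% of all single promoters hold them; a gene with several windows has more chances of a match. A match describes letters in the window and not binding.

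Next to Sphk1, 1065 bases away and on the minus strand, lies Ube2o, a ubiquitin-conjugating enzyme. Its deposited RPM was 0.119 and 0.071 in SOCS3iKEO LPS, 16.8, 19.2 and 18.5 in WT LPS, 0.282 in SOCS3iKEO saline and 10.9 and 20.8 in WT saline. The 3 SOCS3iKEO libraries hold 1, 1 and 2 reads of it, and no SOCS3iKEO value came near a WT value under either treatment. By limma Ube2o was -4.04 on the log2 scale for SOCS3iKEO against WT after LPS (SE 0.30, adjusted p = 5.98e-05) and -3.41 after saline (SE 0.40, adjusted p = 0.148), fitted values that depend on the pseudocount. Socs3 lies 1429.4 kb from Sphk1 on the same chromosome. Sphk1 was also lower after saline, at 0.792 scaled RPM in SOCS3iKEO against 1.78 and 2.21 in WT, on few reads. Whether the low Ube2o bears on Sphk1 was not tested. The annotated antisense gene Gm29292 overlaps Sphk1 by 2153 bases, and since the strand of counting is not given, reads of the pair cannot be told apart.

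Spns2, the exporter that releases S1P from endothelial cells, moved the other way. It had 10.8 and 16.1 scaled RPM in SOCS3iKEO LPS, 83.1, 104 and 107 in WT LPS, 57.2 in SOCS3iKEO saline and 64.9 and 60.0 in WT saline. SOCS3iKEO LPS was the lowest group and WT LPS the highest, and no group overlapped another. Spns2 was lower in SOCS3iKEO than in WT after LPS (log2 fold change -2.80, SE 0.23, limma adjusted p = 8.13e-05) and lower after LPS than after saline in SOCS3iKEO (-2.04, SE 0.31, limma adjusted p = 0.00112). In WT the LPS value was 0.64 (SE 0.23, limma adjusted p = 0.0888), which missed the threshold, and it passed without SOCS3iKEO LPS replicate 1 (0.64, adjusted p = 0.0428) or replicate 2 (0.65, adjusted p = 0.0418). On deposited RPM the SOCS3iKEO LPS effect was -2.84.

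Spns2 lies on chr11:72451638-72489904, minus strand. The 1 RefSeq start site found for it, at 72475027, lies inside these bounds and not at their upstream end, 72489904. The bases printed here are therefore within the annotated gene. The 250 bases before its RefSeq start, chr11:72475028-72475277 on the minus strand, are printed beside those of Sphk1 because these genes had the opposite directions after LPS in SOCS3iKEO; the capitals mark its match, the looser NF-kB motif.
Spns2: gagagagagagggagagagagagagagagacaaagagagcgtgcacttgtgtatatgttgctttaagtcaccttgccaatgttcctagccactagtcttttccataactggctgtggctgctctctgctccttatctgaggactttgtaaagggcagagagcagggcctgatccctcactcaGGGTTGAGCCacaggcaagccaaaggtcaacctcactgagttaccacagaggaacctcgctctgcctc

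The ratio of Sphk1 to Spns2 within a library does not depend on scaling between libraries. It was 84.7 and 42.4 in SOCS3iKEO LPS, 2.33, 0.425 and 0.537 in WT LPS, 0.0138 in SOCS3iKEO saline and 0.0274 and 0.0368 in WT saline. The groups did not overlap, and the ratio was higher in both LPS groups than in their saline groups. As these genes moved in opposite directions after LPS in SOCS3iKEO in the same libraries, this separation restates their results and adds no support. The SOCS3iKEO saline ratio rests on a single library with few Sphk1 reads. Each amplicon has its own efficiency, so the ratio compares libraries and not the amounts of these RNAs.

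**Figure D2:**
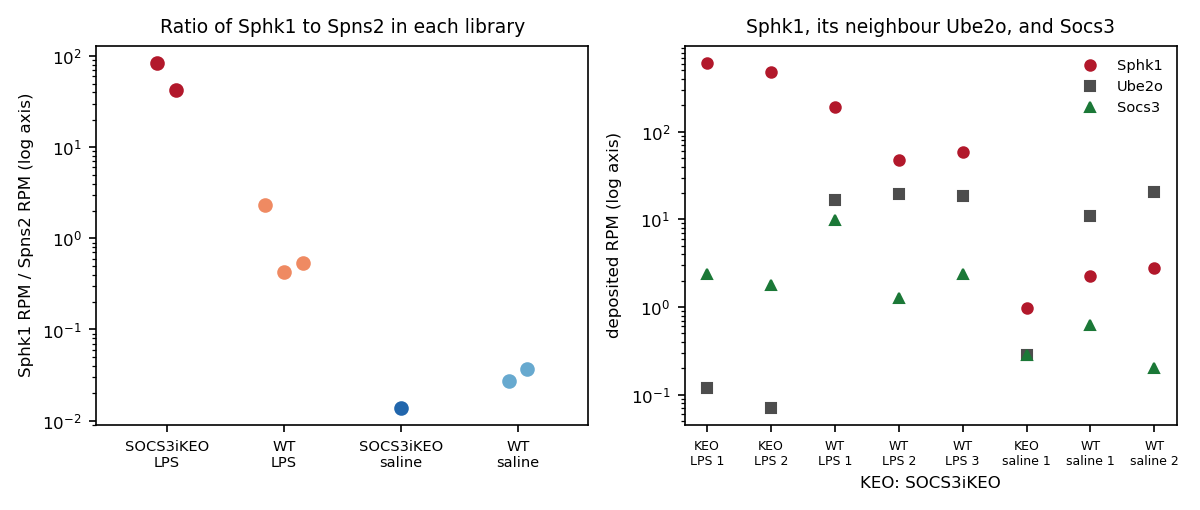
Left, the ratio of Sphk1 to Spns2 RPM in each library on a log axis; right, deposited RPM of Sphk1, its neighbour Ube2o and Socs3 per library, with KEO standing for SOCS3iKEO. The ratio is 84.7 and 42.4 in SOCS3iKEO LPS and 0.425 to 2.33 in WT LPS; Ube2o is near 0 in all 3 SOCS3iKEO libraries.

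Sphk2 (chr7:45709467-45718002, minus strand), the other S1P kinase, found in the nucleus and mitochondria, varied little. Scaled RPM was 28.1 and 27.7 in SOCS3iKEO LPS, 22.8, 19.9 and 19.3 in WT LPS, 17.9 in SOCS3iKEO saline and 17.6 and 20.9 in WT saline. SOCS3iKEO LPS stood above the other groups, and WT saline overlapped both WT LPS and SOCS3iKEO saline. SOCS3iKEO against WT after LPS was 0.42 (95% interval -0.06 to 0.90, limma adjusted p = 0.128), an interval that lies below the Sphk1 value of 3.30. Its direction depended on scaling, since on deposited RPM the value was -0.13. Dbp, which overlaps Sphk2 on the other strand by 737 bases, had deposited values of 137 and 198 RPM in SOCS3iKEO LPS and 43.4, 10.7 and 13.5 RPM in WT LPS, while deposited Sphk2 was 18.9 and 19.7 RPM in SOCS3iKEO LPS and 22.7, 21.2 and 19.5 RPM in WT LPS. Each gene has an amplicon of its own; where these lie relative to the overlap is not known here.

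Sgpl1 (chr10:61098642-61147703, minus strand) and Sgpp1 (chr12:75714249-75735729, minus strand) remove S1P. Sgpl1, the lyase that cleaves it irreversibly, had 21.6 and 15.4 scaled RPM in SOCS3iKEO LPS, 7.83, 6.04 and 4.33 in WT LPS, 7.35 in SOCS3iKEO saline and 6.44 and 6.35 in WT saline. The SOCS3iKEO LPS libraries stood above all others, and the WT LPS and WT saline libraries overlapped. SOCS3iKEO against WT after LPS was 1.48 (SE 0.29, limma adjusted p = 0.00307), and LPS in SOCS3iKEO 1.20 (SE 0.39, limma adjusted p = 0.0332), while LPS in WT was -0.10 (95% interval -0.75 to 0.56, limma adjusted p = 0.857). The LPS call in SOCS3iKEO was lost on deposited RPM (0.42, adjusted p = 0.386), with no filter on low values (1.16, adjusted p = 0.0690), and without SOCS3iKEO LPS replicate 1 (0.97, adjusted p = 0.104), WT LPS replicate 2 (1.21, adjusted p = 0.0530), WT saline replicate 1 (1.20, adjusted p = 0.0586) or WT saline replicate 2 (1.20, adjusted p = 0.0597).

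Sgpp1, the phosphatase that returns S1P to sphingosine in the endoplasmic reticulum, had 182 and 191 scaled RPM in SOCS3iKEO LPS, 45.7, 120 and 145 in WT LPS, 91.3 in SOCS3iKEO saline and 66.7 and 104.5 in WT saline. On scaled RPM SOCS3iKEO LPS was above the rest, which overlapped. On deposited RPM SOCS3iKEO LPS overlapped WT LPS. SOCS3iKEO against WT after LPS was 1.00 (95% interval 0.02 to 1.97, limma adjusted p = 0.0820), and did not pass. WT LPS replicate 1 was the lowest WT LPS value and has 3 Y-linked reads; with a term for Y-linked reads the value was 1.76 (limma adjusted p = 0.00289), and without WT LPS replicate 3 it was 1.32 (limma adjusted p = 0.0408). LPS in SOCS3iKEO, at 1.02 (limma adjusted p = 0.180), passed without WT LPS replicate 1 (1.02, adjusted p = 0.0233).

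S1pr1, which encodes the Gi-coupled receptor that seals the endothelial barrier, had 10576 and 10905 scaled RPM in SOCS3iKEO LPS, 2552, 1846 and 3384 in WT LPS, 2232 in SOCS3iKEO saline and 1333 and 1427 in WT saline. SOCS3iKEO LPS did not overlap any group, and WT LPS stood above WT saline but overlapped the SOCS3iKEO saline library. After LPS S1pr1 was higher in SOCS3iKEO by 2.09 (SE 0.29, limma adjusted p = 0.000532), and LPS in SOCS3iKEO raised it by 2.27 (SE 0.39, limma adjusted p = 0.00203). LPS in WT gave 0.87 (95% interval 0.22 to 1.52, limma adjusted p = 0.0714), which passed without WT LPS replicate 2 (1.09, adjusted p = 0.0414). On deposited RPM the SOCS3iKEO LPS effect was 1.41. S1pr1 lies on chr3:115710433-115715072, minus strand; S1pr2 on chr9:20962361-20976781, minus strand; and S1pr3 on chr13:51408639-51422797, plus strand.

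S1pr3, a receptor that couples to Gi, Gq and G12 and G13 proteins, had 13.8 and 5.50 scaled RPM in SOCS3iKEO LPS, 0.505, 2.29 and 1.08 in WT LPS, 1.13 in SOCS3iKEO saline and 2.61 and 4.63 in WT saline. These values come from 78 and 55 reads in SOCS3iKEO LPS, 6, 33 and 12 in WT LPS, 10 in SOCS3iKEO saline and 47 and 86 in WT saline. SOCS3iKEO LPS was above every other group, and WT LPS was below WT saline. The log2 fold change was 2.17 for SOCS3iKEO against WT after LPS (SE 0.44, limma adjusted p = 0.0033) and 2.20 for LPS in SOCS3iKEO (SE 0.58, limma adjusted p = 0.0143). The call for LPS in SOCS3iKEO was lost without SOCS3iKEO LPS replicate 1 (1.63, adjusted p = 0.0574) and with no filter on low values (2.16, adjusted p = 0.0604). LPS in WT was -1.05 (SE 0.44, limma adjusted p = 0.133). edgeR on recovered reads, which adds no pseudocount of 1 RPM, gave 2.84 for SOCS3iKEO against WT after LPS, and without SOCS3iKEO LPS replicate 2 limma gave 2.82.

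S1pr2, the receptor that acts mainly through G12 and G13 proteins, had 1.24 and 0.600 scaled RPM in SOCS3iKEO LPS, 1.77, 4.79 and 2.16 in WT LPS, 2.49 in SOCS3iKEO saline and 2.89 and 3.17 in WT saline. SOCS3iKEO LPS was below the other groups and rests on 7 and 6 reads, and WT LPS overlapped both saline groups. SOCS3iKEO against WT after LPS was -0.97 (SE 0.34, limma adjusted p = 0.0398). That call was lost without SOCS3iKEO LPS replicate 1 (-1.24, adjusted p = 0.0562), SOCS3iKEO LPS replicate 2 (-0.72, adjusted p = 0.193), WT LPS replicate 2 (-0.64, adjusted p = 0.115), WT LPS replicate 3 (-1.08, adjusted p = 0.0578), WT saline replicate 1 (-0.95, adjusted p = 0.0627) or WT saline replicate 2 (-0.95, adjusted p = 0.0625). With RLE size factors it was -0.92 (adjusted p = 0.0505), with no filter on low values -0.99 (adjusted p = 0.0987), and with a term for Y-linked reads -0.70 (adjusted p = 0.198).

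The panel also held the receptors S1pr4 and S1pr5. S1pr4, a receptor known from immune cells, had 3.53 and 4.00 scaled RPM in SOCS3iKEO LPS, 9.52, 25.8 and 18.8 in WT LPS, 11.7 in SOCS3iKEO saline and 8.78 and 16.8 in WT saline. It was lower in SOCS3iKEO than in WT after LPS (log2 fold change -1.90, SE 0.41, limma adjusted p = 0.00481), while LPS in SOCS3iKEO gave -1.41 (limma adjusted p = 0.0647), LPS in WT 0.42 (limma adjusted p = 0.524) and the interaction -1.83 (limma adjusted p = 0.0926). On deposited RPM S1pr4 was called lower for LPS in SOCS3iKEO (-2.11) and in the interaction (-2.26). S1pr5, known from natural killer cells and brain endothelium, had 0 to 2 reads per library and was not tested.

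Whether the LPS effect itself differed between genotypes was tested as the genotype by LPS interaction, the LPS effect in SOCS3iKEO minus that in WT. It called 3 of 8 genes, 2 higher and 1 lower, beside 18.5% of all genes (8.96% higher and 9.49% lower): Sphk1 (4.03, SE 0.87, limma adjusted p = 0.0183) and S1pr3 (3.25, SE 0.73, limma adjusted p = 0.0206) with the larger effect in SOCS3iKEO, and Spns2 (-2.68, SE 0.38, limma adjusted p = 0.00594) with the smaller value. S1pr1 gave 1.40 (95% interval 0.31 to 2.49, limma adjusted p = 0.0717) and Sgpl1 1.30 (95% interval 0.20 to 2.40, limma adjusted p = 0.0922), and neither passed; without WT LPS replicate 1 Sgpl1 gave 1.46 (adjusted p = 0.0454). Sgpp1 at 0.87 (95% interval -0.77 to 2.50), Sphk2 at 0.52 (-0.29 to 1.32) and S1pr2 at -0.76 (-2.05 to 0.53) had intervals that include 0. With no filter on low values the calls of Sphk1 (3.99, adjusted p = 0.0765) and S1pr3 (3.22, adjusted p = 0.0781) were lost. The Sphk1 interaction was lost without WT saline replicate 1 (4.13, adjusted p = 0.0725) or replicate 2 (3.92, adjusted p = 0.0615), and that of S1pr3 without WT LPS replicate 3 (3.22, adjusted p = 0.0517), WT saline replicate 1 (3.54, adjusted p = 0.0633) or WT saline replicate 2 (2.91, adjusted p = 0.0693). That of Spns2 passed in all 7 such fits, between -2.95 and -2.42.

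**Figure D3:**
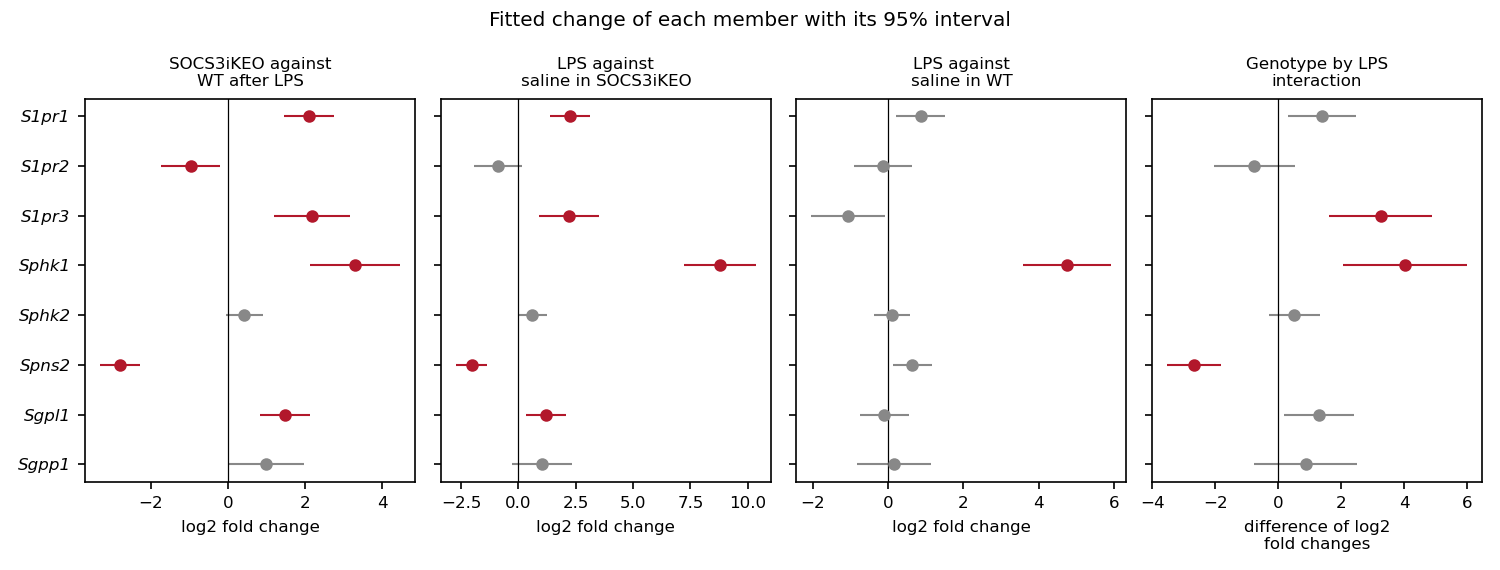
Log2 fold changes of the 8 genes with 95% intervals in 4 panels, left to right SOCS3iKEO against WT after LPS, LPS against saline in SOCS3iKEO, LPS against saline in WT, and the difference of these LPS effects; red marks a limma adjusted p below 0.05. Sphk1 is at 3.30, 8.79, 4.75 and 4.03, and Spns2 at -2.80, -2.04, 0.64 and -2.68.

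After saline, SOCS3iKEO against WT rests on 1 SOCS3iKEO library, which was assumed to vary like the other groups. No member passed, beside 0% of all genes; at an unadjusted p below 0.05 limma had 423 genes, none of them a member, edgeR called 0 genes and DESeq2 5. The log2 values ran from -1.08 for S1pr3 (95% interval -2.40 to 0.24) to 0.69 for S1pr1 (-0.18 to 1.57). Groups did not overlap for 6 of 8 members, beside 73.9% of all genes. For Spns2 the value was -0.12 (95% interval -0.81 to 0.57), and for Sphk1 -0.74 (-2.31 to 0.84).

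Other genes of the pathway came from 8 lists of 69 genes, of which 59 were tested. SOCS3iKEO against WT after LPS called 17 higher and 15 lower (12 and 23 on deposited RPM), LPS in SOCS3iKEO 14 and 6 (9 and 23 on deposited RPM), LPS in WT 10 and 7 (6 and 8 on deposited RPM), and the interaction 9 and 6 (5 and 10 on deposited RPM), so the balance of directions depended on scaling. Of all 12820 genes, 24% were called higher and 26.7% lower in SOCS3iKEO against WT after LPS, 20.2% and 23.9% for LPS in SOCS3iKEO, 6.85% and 8.79% for LPS in WT, and 8.96% and 9.49% for the interaction; on deposited RPM the first of these comparisons called 1720 genes higher and 5346 lower. The counts of the lists below stand beside these shares and were not tested against them. The median log2 fold change of the 59 was 0.15 for SOCS3iKEO against WT after LPS (-0.37 on deposited RPM), against -0.04 for all genes. Called genes named here kept their sign on deposited RPM.

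Among 6 tested regulators of S1PR1, SOCS3iKEO against WT after LPS called 2 higher and 4 lower, beside 24% and 26.7% of all genes. Stat3, a transcription factor, had 2811 and 2313 scaled RPM in SOCS3iKEO LPS and 899, 523 and 803 in WT LPS (1.82, limma adjusted p = 0.000635). Klf2, a transcription factor that drives S1pr1 in endothelium and T cells, had 8185 and 6126 in SOCS3iKEO LPS and 3361, 2218 and 2938 in WT LPS. The arrestins, which turn off and internalise receptors, were the lower side: Arrb1 had 7.77 and 15.01 in SOCS3iKEO LPS and 36.8, 55.0 and 45.6 in WT LPS (-1.96, limma adjusted p = 0.000687), Arrb2 had 0.883 and 1.20 in SOCS3iKEO LPS and 5.47, 11.1 and 7.93 in WT LPS (-2.12, limma adjusted p = 0.000643). Dnm2, a dynamin of endocytosis, was also lower (-1.40), and so was Grk2, a receptor kinase, at -1.31 (limma adjusted p = 0.0122); Grk2 was -0.61 without SOCS3iKEO LPS replicate 1 (adjusted p = 0.0486) and -1.99 without SOCS3iKEO LPS replicate 2. Within WT, LPS called Stat3 higher (1.23) and Arrb1 lower (-1.20), 1 and 1 of 6; in SOCS3iKEO it called Stat3 (2.59) and Klf2 (1.34) higher and Arrb1 (-3.04) and Arrb2 (-2.89) lower (1 higher and 4 lower on deposited RPM). Klf2 was lost there on deposited RPM (0.49, adjusted p = 0.248) and without SOCS3iKEO LPS replicate 1 (adjusted p = 0.0751).

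Carriers and exporters other than Spns2 gave 2 higher of 5 in SOCS3iKEO against WT after LPS, beside 24% of all genes. Abca1, a lipid transporter, had 56.4 and 64.9 scaled RPM in SOCS3iKEO LPS, 6.91, 3.89 and 6.67 in WT LPS, 21.9 in SOCS3iKEO saline and 12.6 and 13.1 in WT saline. It was 3.21 higher in SOCS3iKEO after LPS (SE 0.27, limma adjusted p = 9.26e-05), 1.42 higher after LPS in SOCS3iKEO and fell by 1.05 after LPS in WT. Apom, the plasma carrier of S1P, was 2.07 higher in SOCS3iKEO after LPS. It was 1.47 without SOCS3iKEO LPS replicate 1 and 2.71 without replicate 2 of that group. Proximal tubule markers were also higher in this comparison, with a median log2 fold change of 2.41. Whether tubule RNA in the libraries bears on Apom was not tested. Within WT, LPS called Abcg2 (1.08) and Abcc1 (0.79) higher, neither of which passed on deposited RPM (adjusted p = 0.0868 and 0.115); the SOCS3iKEO LPS call of Abca1 did not pass there either (0.59, adjusted p = 0.191). Mfsd2b, the S1P exporter of red cells and platelets, held 1 to 7 reads per library. Of 5 genes for other phosphatases and a dehydrogenase, Sgpp2 (1.73) and Plpp3 (0.97), which break down S1P, were higher in SOCS3iKEO after LPS (1 higher and 1 lower on deposited RPM), and Plpp3 was lower after LPS in WT (-1.06). None of them passed for LPS in SOCS3iKEO, where Plpp2 gave 1.07 (limma adjusted p = 0.0596; 0.0417 with RLE size factors) and Plpp3 0.67 (limma adjusted p = 0.134). Plpp3 in SOCS3iKEO against WT after LPS did not pass on deposited RPM (0.41, adjusted p = 0.224) or without SOCS3iKEO LPS replicate 2 (adjusted p = 0.0617).

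Of 10 ceramidase and sphingomyelinase genes, 4 were higher and 1 lower in SOCS3iKEO against WT after LPS (2 and 3 on deposited RPM), a share called close to the 50.7% of all genes. Acer2, the Golgi ceramidase that frees sphingosine, had 546 and 595 scaled RPM in SOCS3iKEO LPS, 229, 192 and 315 in WT LPS, 134 in SOCS3iKEO saline and 81.9 and 101 in WT saline. It was called in SOCS3iKEO against WT after LPS (1.24), LPS in SOCS3iKEO (2.08) and LPS in WT (1.39). Acer3 (2.33) and Smpdl3a (1.29) were also higher and Smpd3, a neutral sphingomyelinase, lower (-1.34) in SOCS3iKEO after LPS; the calls of Smpdl3a (adjusted p = 0.0736) and Smpd3 (adjusted p = 0.0689) were lost without SOCS3iKEO LPS replicate 1, where Smpdl3a was 0.69, against 1.92 without SOCS3iKEO LPS replicate 2, and that of Smpdl3a on deposited RPM (0.74, adjusted p = 0.0760). LPS called 3 higher of the 10 in SOCS3iKEO (2 higher and 5 lower on deposited RPM) and 1 higher and 1 lower in WT. Besides Acer2, those in SOCS3iKEO were Acer3 (2.23) and Smpd4 (1.09), and the lower gene in WT was Smpdl3a (-1.91). Of 12 genes of new ceramide synthesis, 2 were higher and 4 lower in SOCS3iKEO after LPS (1 and 6 on deposited RPM), among them the ceramide synthase Cers6 (1.90) higher and Cers5 (-1.87), Cers4 (-1.27) and Sptssa (-1.54) lower. Cers5 was -1.14 without SOCS3iKEO LPS replicate 1 and -2.65 without SOCS3iKEO LPS replicate 2. LPS against saline called 3 of the 12 higher and 2 lower in SOCS3iKEO, and 2 higher and 1 lower in WT. Sptssa, a small subunit of serine palmitoyltransferase, was lower after LPS in both genotypes, at -2.90 in SOCS3iKEO and -1.70 in WT. Sptlc2 and Degs1 were called higher after LPS in both genotypes, at 2.09 and 2.01 in SOCS3iKEO. Cers6 was called higher in SOCS3iKEO only (2.24). Among genes that use ceramide, LPS against saline called 2 higher of 5 in SOCS3iKEO, Sgms2 (3.54) and Ugcg (1.17). On deposited RPM it called 1 higher and 1 lower there. In WT it called 2 higher, Sgms1 (1.34) and Cerk (1.04). Of 5 genes of ceramide use, Sgms2, a sphingomyelin synthase, was higher in SOCS3iKEO after LPS (2.79), and Cerk, the ceramide kinase, was lower (-0.63), the Cerk call being lost without SOCS3iKEO LPS replicate 1, WT LPS replicate 2 or WT LPS replicate 3 (highest adjusted p = 0.0924).

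Of 15 G proteins and effectors, 4 were higher and 3 lower in SOCS3iKEO against WT after LPS (3 and 6 on deposited RPM), beside 50.7% of all genes called. Tiam1, an activator of Rac, had 55.3 and 29.8 scaled RPM in SOCS3iKEO LPS, 4.30, 6.04 and 2.98 in WT LPS, 37.0 in SOCS3iKEO saline and 40.5 and 55.6 in WT saline. WT LPS alone stood low: LPS in WT was -3.20 (limma adjusted p = 0.000741), and SOCS3iKEO against WT after LPS 2.98 (SE 0.34, limma adjusted p = 0.00024). Gna13, a G protein of the G12 and G13 class, was higher (1.64), and Gna11 (-2.70), of the Gq class, and Arhgef1 (-2.37), a guanine nucleotide exchange factor that acts downstream of G13, lower. LPS in SOCS3iKEO called Gna13 (2.23) and Gnai3 (1.60) higher and Gna11 (-2.57) and Arhgef1 (-1.91) lower, among 3 higher and 2 lower in all (2 and 6 on deposited RPM). In WT, LPS called Cttn (0.98) and Gnai3 (0.63) higher and Tiam1 and Arhgef12 (-0.78) lower; Cttn (adjusted p = 0.102) and Gnai3 (adjusted p = 0.22) did not pass on deposited RPM.

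**Figure D4:**
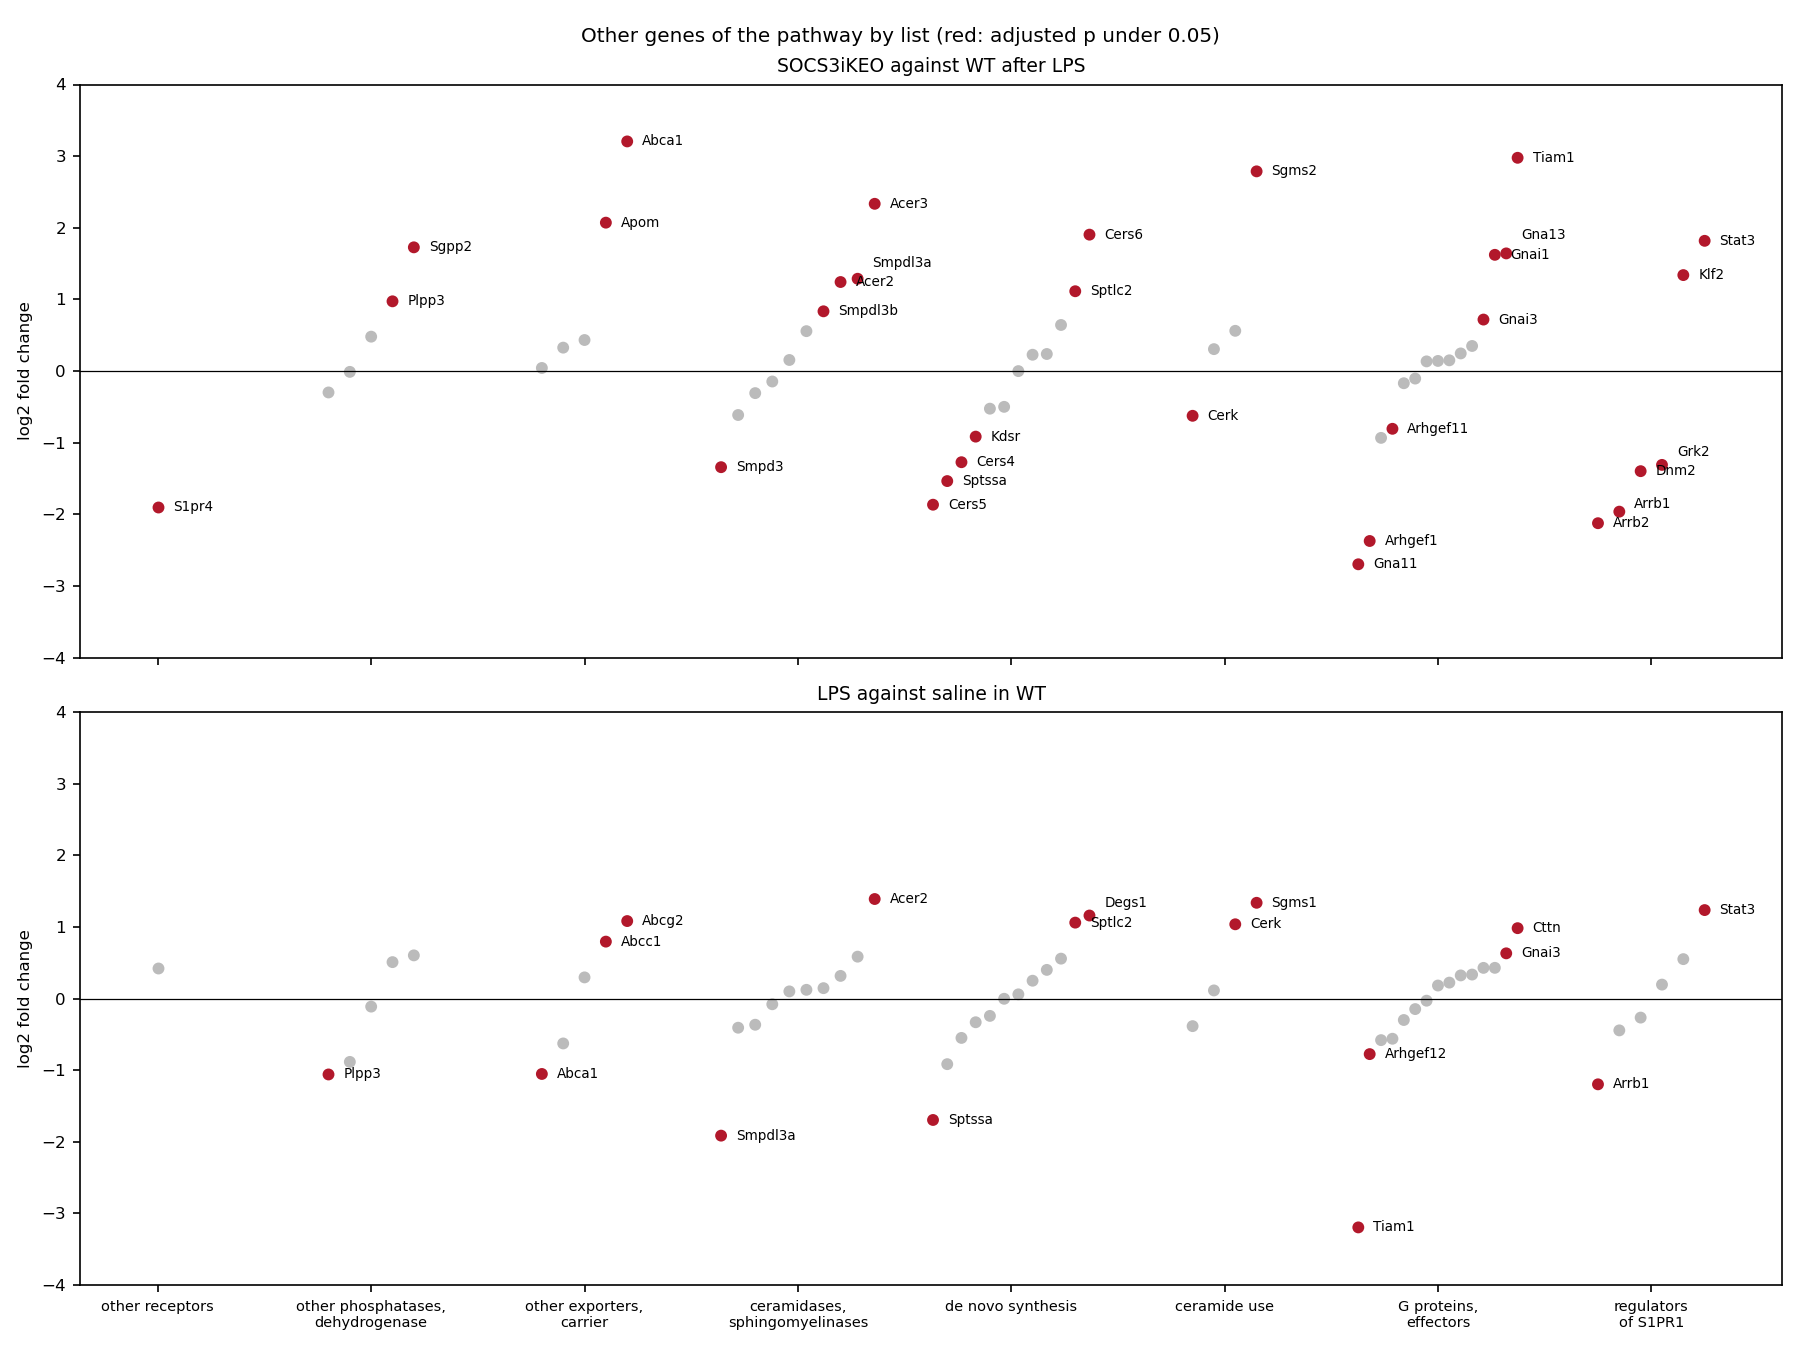
Log2 fold changes of tested genes of each pathway list, top SOCS3iKEO against WT after LPS, bottom LPS against saline in WT; each point is a gene, red where the limma adjusted p is below 0.05. In the top panel Abca1 (3.21) and Tiam1 (2.98) are highest, and Gna11 (-2.70) is lowest.

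Leaving out each library in turn, 25 of the 32 pathway calls of SOCS3iKEO against WT after LPS and 16 of the 20 of LPS in SOCS3iKEO passed in every fit, but 2 of the 17 of LPS in WT and 2 of the 15 of the interaction. The other 15 of LPS in WT and 13 of the interaction were all lost without WT saline replicate 1, and most of them without other libraries too.

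Genes whose profile over the 8 libraries lay closest to a member were found by the root mean squared difference of centred log2 values. For Sphk1 the closest were Csf3 (0.481), Slfn4 (0.542) and Mt1 (0.581), for S1pr1 Pim3 (0.168), Ptprk (0.206) and Mmp14 (0.214), and for Spns2 Ccdc102a (0.159), Tnrc6c (0.172) and Eml1 (0.176). For S1pr3 they were Agxt2 (0.351), Dact1 (0.367) and Fmnl1 (0.381), for S1pr2 Egln1 (0.168), Gm36660 (0.175) and Enkd1 (0.207), and for Sgpl1 Svbp (0.0802), Zbtb39 (0.132) and Pcdhb21 (0.145). Sphk2 lay nearest Pold3 (0.0696), Parp4 (0.0710) and Apool (0.0715), and Sgpp1 nearest Laptm4a (0.197), Slc37a4 (0.252) and Btbd9 (0.264). The points share libraries and their depth, and the likeness is a description.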

How the data were processed

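The authors deposited reads per 1000000 panel reads (RPM) of 23930 amplicons, 1 column per mouse. Per the labels' protocols, libraries were made with an Ion AmpliSeq mouse transcriptome kit on an Ion Chef; per the submitters' processing notes, mm10 is the build and Transcriptome Analysis Console is a tool listed without a role. Aligner, counter and strand: not given in the sources used here. Names of 27 genes, stored as dates, were restored, and Grk2 was filed under its synonym Adrbk1. In every library 100% of values were whole multiples of 1 read within 0.1 read, so read numbers were recovered, 7093794 to 14877519 per library. PCR copies carry no molecular identifiers, so they were counted as reads. The exact interval given for Sphk1 covers counting error only, while the intervals of log2 fold changes come from the limma fit over libraries.

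Because the deposited unit is RPM, limma 3.58.1 (R 4.3.3) with eBayes trend served as main test of log2(TMM-scaled RPM + 1), which understates the change of low genes. All 8 libraries entered 1 fit with 4 group means. filterByExpr (edgeR 4.0.16, minimum count 10, minimum total 15) kept 12820 genes. Adjusted p-values are Benjamini-Hochberg over all of them, called below 0.05. edgeR's quasi-likelihood test on the recovered reads called 6253 genes for SOCS3iKEO against WT after LPS, 5194 for LPS in SOCS3iKEO, 2065 for LPS in WT, 0 between genotypes after saline and 2114 for the interaction; limma called 6501, 5649, 2005, 0 and 2366. The fit was run on simulated reads with the same spread for all genes and few genes changed. That run does not cover the spread and the scaling shifts of these libraries. DESeq2 1.42.0 was an alternative. Other alternatives were RLE size factors, RPM as deposited, no filter, pseudocounts of 0.1 and 10, a term for Y-linked reads, each library left out, and the 5 WT or 5 LPS libraries alone.

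The 8 genes, the pathway and marker lists and the tests were chosen with earlier results of these data known. All 8 genes are named throughout. Of each pathway list, up to 4 called genes with the largest change are named, or 2 with the smallest p where none was called. For SOCS3iKEO against WT after saline no pathway genes are named. Klf2 and Grk2 in SOCS3iKEO against WT after LPS were added after their values were seen. The result of 1 pathway gene is not reported here outside the counts. Ube2o, Dbp and the antisense gene are named as nearest to Sphk1 or overlapping a member. Other annotated genes overlap members too: Mybbp1a overlaps Spns2 by 131 bases, Rpl18 Sphk2 by 2546, Gm32834 S1pr3 by 10048 and Gm44308 Sgpl1 by 99. Of these only Mybbp1a is on the panel, with LPS effects of 2.24 in SOCS3iKEO and 1.28 in WT. The strand of counting is not given, so reads of S1pr3 and of Gm32834 on the other strand cannot be told apart. Each library is 1 mouse. Positions are from GENCODE M21 (mm10) and promoters from RefSeq (GRCm38.p6).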

Additional observations from a re-analysis of the deposited data

Results flagged for a closer look

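The LPS effect differed between genotypes by the limma interaction test (adjusted p below 0.05, value SOCS3iKEO minus WT) for Sphk1 (4.03), S1pr3 (3.25) and Spns2 (-2.68). Among the other pathway genes it was positive for Sgms2 (3.93), Tiam1 (3.33), Abca1 (2.48), Gnai1 (2.13), Cers6 (1.996), Acer3 (1.91), Gna13 (1.90), Plpp3 (1.73) and Klf2 (1.61). It was negative for Arrb2 (-2.45), Arhgef1 (-2.24), Gna11 (-1.99), Cers4 (-1.89), Arrb1 (-1.84) and Dnm2 (-1.34). Sgms2 and Tiam1 passed with every library left out in turn, and the other 13 pathway genes all lost the call without WT saline replicate 1, Abca1 (highest adjusted p = 0.0602) without that library alone. On deposited RPM Acer3 (1.37, adjusted p = 0.067), Cers6 (1.52, adjusted p = 0.074), Klf2 (1.05, adjusted p = 0.093) and Plpp3 (1.18, adjusted p = 0.082) did not pass. The SOCS3iKEO arm of each value rests on 1 saline library.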

How the results depend on the processing

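No paired analysis was possible because the labels carry no replicate numbers. Of 632 recomputed values of the 8 genes, 579 kept direction and side of the threshold, 26 lost the call, 13 gained it and 14 changed sign, none of these called in either fit. Members called for LPS in WT were 1, but 3 with DESeq2, 2 with the 5 WT libraries alone and 1 to 2 with a library left out. For LPS in SOCS3iKEO they were 5, but 3 with no filter (S1pr3 and Sgpl1 lost) and 3 to 6 with a library left out. For SOCS3iKEO against WT after LPS they were 6, and 5 to 6 with a library left out. For the interaction they were 3, but 1 with no filter (Sphk1 and S1pr3 lost) and 1 to 4 with a library left out. Genes called over the whole panel for LPS in WT were 1078 with no filter and 348 to 2554 with a library left out, the lowest without WT saline replicate 1, against 2005. For the interaction they were 844 with no filter and 238 to 3679 with a library left out, against 2366. After saline they were 2 with no filter, 1 with pseudocount 0.1 and 5 with DESeq2, against 0. Over leave-outs LPS in SOCS3iKEO called 4839 to 6092 genes, against 5649, and SOCS3iKEO against WT after LPS 4641 to 6749, against 6501. Signs that changed on deposited RPM were those of Sphk2 (-0.13 for SOCS3iKEO against WT after LPS, -0.20 for LPS in SOCS3iKEO, -0.18 for LPS in WT, -0.0159 for the interaction) and Sgpp1 (-0.14 for LPS in WT, and -0.0359 there with a term for Y-linked reads). With a library left out, LPS in WT ranged from -0.44 to 0.10 for S1pr2, -0.26 to 0.0926 for Sgpl1, -0.17 to 0.67 for Sgpp1 and -0.0197 to 0.22 for Sphk2. After saline Sgpp1 ranged from -0.19 to 0.45 and Sphk2 from -0.21 to 0.0187. The causes of these differences were not tested. Calls of the 8 genes for which the report names no library passed in every such fit. Without the SOCS3iKEO saline library, LPS in SOCS3iKEO, the saline comparison and the interaction could not be fitted. Low read numbers limit S1pr2, S1pr3 and, after saline, Sphk1.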
